A study of Mus musculus with 3 samples.

Results

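Endosomal sorting complexes (ESCRT), sorting nexins and SNARE fusion proteins were described in macrophages of the mouse kidney at steady state. The genes were taken by name: every listed gene whose symbol begins with Vps, Chmp, Snx, Stx or Vamp and a number, or with Stam, together with Hgs and Tsg101. This rule uses no measured value and took 95 of the 14811 listed genes, of which 94 are annotated as protein coding and 1, Stamos, as a non-coding transcript. The data were 3 RNA-seq libraries, 1 from each of 3 C57BL/6J mice. All 3 animals belong to the same group and got PBS, a salt buffer, into a vein 1 h before the kidneys were removed. The tissue was broken up with enzymes and macrophages were collected with a cell sorter. The labels state neither age, sex nor the sorting gate. With no second group, the results are levels, ratios of paired genes and the spread over the 3 animals.

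Membrane proteins taken up by a cell reach endosomes, where they are either recycled or sent to the lysosome. ESCRT complexes 0, I and II gather ubiquitin-tagged cargo, ESCRT-III filaments made of CHMP proteins pinch it into vesicles inside the endosome, and the VPS4 ATPases take the filaments apart. Retromer and the sorting nexins do the reverse job and carry cargo from endosomes to the Golgi or the cell surface. HOPS and CORVET tether late and early endosomes before fusion, GARP does so at the Golgi, and SNARE proteins (syntaxins, VAMPs and their partners) zip 2 membranes together. Macrophages use these routes to mature phagosomes, to load and recycle receptors, and to secrete.

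Levels are normalised read counts, meaning reads per gene divided by a size factor per library. The libraries held 50646558 to 56718534 reads over the listed genes, and a count of 0 allows up to 1.66 to 2.42 normalised reads (3 reads, counting error only). All 9 macrophage markers looked at, among them Adgre1 and Csf1r, reached 1000 in every mouse. Markers of kidney tubule summed to 4344, 21545 and 2112 in mice 1, 2 and 3 over 7 genes, against 429575, 295856 and 364852 for the 9 macrophage markers. The 3 platelet markers summed to 6362, 6797 and 6987, nearly all of it Pf4 in mice 1 and 2, with Itga2b at 0 in every mouse and Ppbp at 1698 in mouse 3. The 5 endothelial markers summed to 569, 133 and 1384, with Kdr at 453, 7.77 and 1345 and Pecam1 at 4.84 or less. T and NK cell markers summed to at most 1.11, while the B cell marker Cd79b was at 227, 3940 and 6359. In mouse 2, 71.1% of all listed genes reached a level of 10, compared with 59.7% and 59.1% in mice 1 and 3. In bulk libraries, fewer cells of a type and less RNA per cell cannot be told apart.

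The 95 genes took 0.769%, 0.636% and 0.632% of the reads in mice 1, 2 and 3. Snx5, a retromer-linked sorting nexin, alone held 16.3% ± 2.86 of these reads (SD, n = 3). The 10 genes with the highest means held 56.8% ± 2.56 (SD, n = 3). Of the 95 genes, 57 reached a level of 10 in every mouse, which was the case for 44.4% of all listed genes. A level of 1000 in every mouse was reached by 24 of the 95, against 14.7% of all listed genes. Of all 14811 listed genes, 11948 are annotated as protein coding, against 94 of these 95. The shares of all genes given here and below cover coding and other genes together and were not computed for coding genes alone. Snx11 and Vamp1 were at 0 in every mouse, and a further 11 were at 0 in 1 or 2 mice.

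To place each gene, its level per kb of exon was set against the median gene of the same library. That gene stood at 26.0, 56.6 and 27.4 normalised reads per kb in mice 1, 2 and 3 (1 added to the normalised count before the logarithm). Differences are log2 values of levels per kb, averaged over 3 mice and tested with limma across 13792 genes at an adjusted p under 0.05. Of the 93 genes of these families tested, 28 were called above the median gene, where 23.5% of all genes were, and 9 below it, where 17.3% of all genes were. Their median log2 difference was 0.85, compared with -0.49 over all genes tested. In a fit without a trend of the spread over level, 22 of the 28 calls above and 8 of the 9 calls below were kept, beside 16.3% and 14.2% of all genes called in both fits. Without the trend the p-values were far larger: the 22 kept calls above had adjusted p of 0.0146 to 0.0427 and the 8 below 0.0146 to 0.0468 (limma). The size of a difference rests on which gene counts as the median: set against the median of genes above 0 in every library, each called difference fell by 1.71 log2 units. The calls made only with the trend were Vps54, Snx13, Stx8, Stx16, Vps36 and Vps41 above and Vps45 below.

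**Figure D1:**
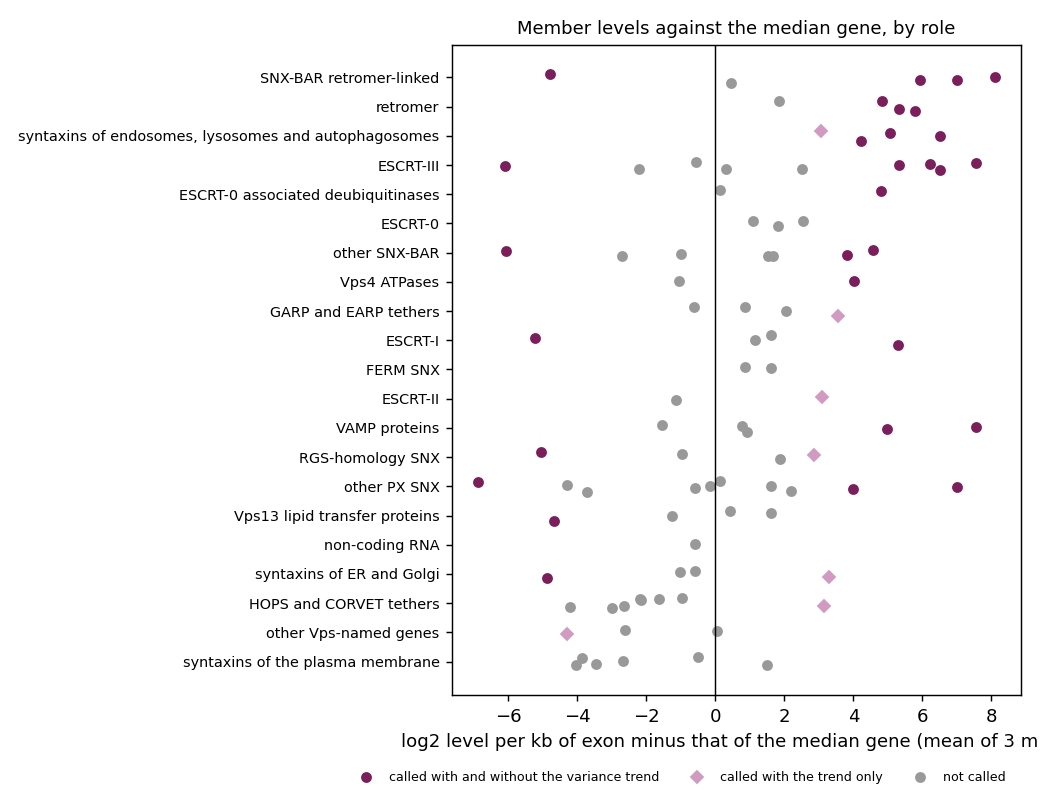
Each point is 1 of the 93 tested genes, placed by its log2 level per kb of exon minus that of the median gene (mean of 3 mice), in rows by role that run from the highest median at the top to the lowest at the bottom. Dark points were called with limma in both fits, pale diamonds with the variance trend only, and grey points in neither; the 4 syntaxins of endosomes, lysosomes and autophagosomes all lie right of 0, and none of the 6 plasma membrane syntaxins was called.

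The ESCRT pathway was uneven from its first step to its last. In ESCRT-0, which binds ubiquitin on cargo, Hgs was at 48.4, 226 and 914 normalised reads in mice 1, 2 and 3. Its partner Stam was at 2973, 1478 and 236, and the paralog Stam2 at 398, 1889 and 2240. Stam was thus highest in mouse 1, where Hgs and Stam2 were lowest, and none of the 3 was called. The deubiquitinase Stambp, which can remove ubiquitin from cargo at this step, was at 13495, 12699 and 5755 (log2 difference 4.80, adjusted p = 2.22e-05 with and 0.0220 without the variance trend, limma). Its relative Stambpl1 was at 13.7, 719 and 884. Stamos, a non-coding transcript named for its place opposite Stam, was at 25.0, 1.66 and 1149.

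In ESCRT-I, Tsg101, the subunit that receives cargo from ESCRT-0, was at 3144, 2497 and 6351 in mice 1, 2 and 3 (log2 difference 5.30, adjusted p = 2.51e-06 with and 0.0197 without the variance trend, limma). It was above 1000 in every mouse. Of the 3 alternative VPS37 subunits listed, Vps37a was at 3081, 849 and 116, Vps37c at 483, 228 and 76.8, and Vps37b at 0.806, 8.32 and 0. Per kb, Vps37b lay below both others in 3 of 3 mice, while Vps37a exceeded Vps37c in mice 1 and 2 but not in mouse 3. Vps37b was called below the median gene (log2 difference -5.22, adjusted p = 0.00181 with and 0.0198 without the variance trend, limma). The call did not hold without mouse 3 (adjusted p = 0.0733, limma). In ESCRT-II, which links ESCRT-I to ESCRT-III, Vps36 was at 243, 1876 and 2694 and Vps25 at 62.9, 255 and 0. The call of Vps36 above the median gene was lost in the fit without the trend (adjusted p = 0.0896, limma) and without mouse 2 (adjusted p = 0.156, limma) or mouse 3 (adjusted p = 0.357, limma).

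By mean level per kb, the ESCRT-III genes Chmp2a, Chmp2b, Chmp5 and Chmp3 were the highest of the pathway. Chmp2a, one of the filament subunits that recruits VPS4, was at 7328, 8790 and 6464 normalised reads in mice 1, 2 and 3. The 3 values lay close together. Its paralog Chmp2b was at 17003, 4445 and 2942. Per kb, Chmp2a was second among all 95 genes at 6478 ± 1012 normalised reads per kb (SD, n = 3). Chmp5 (9816, 3709 and 1627) and Chmp3 (7616, 6987 and 1655) were lowest in mouse 3 as well. These 4 of the 9 CHMP genes were called above the median gene, by log2 differences of 5.32 to 7.55. Over all genes tested, 23.5% were called above it.

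The other CHMP genes had lower means, though Chmp7 in mouse 3 (1883 normalised reads) lay above Chmp3 and Chmp5. Per kb in mouse 3, Chmp7 (299) lay below Chmp3 (509) and Chmp5 (1071). Chmp4b, whose protein forms the core of the ESCRT-III filament, was at 289, 394 and 547 normalised reads, steady but not called (log2 difference 2.52, adjusted p = 0.0863, limma). Chmp4c was at 0, 2.77 and 32.4, below Chmp4b in 3 of 3 mice, and was called below the median gene (log2 difference -6.11, adjusted p = 2.38e-05 with and 0.0238 without the variance trend, limma). Chmp1a was at 12.1, 184 and 181, Chmp6 at 17.7, 315 and 0, and Chmp7, which acts at the nuclear envelope, at 12.1, 765 and 1883. Of the ATPases, Vps4b was at 11979, 5071 and 2042 (log2 difference 4.03, adjusted p = 8.73e-04 with and 0.0414 without the variance trend, limma). The call did not hold without mouse 1 (adjusted p = 0.0561, limma). Vps4a was at 0.806, 295 and 130, and the mouse 1 value is a single read. Per kb, Vps4b exceeded Vps4a by log2 ratios of 2.28 and 2.14 in mice 2 and 3.

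**Figure D2:**
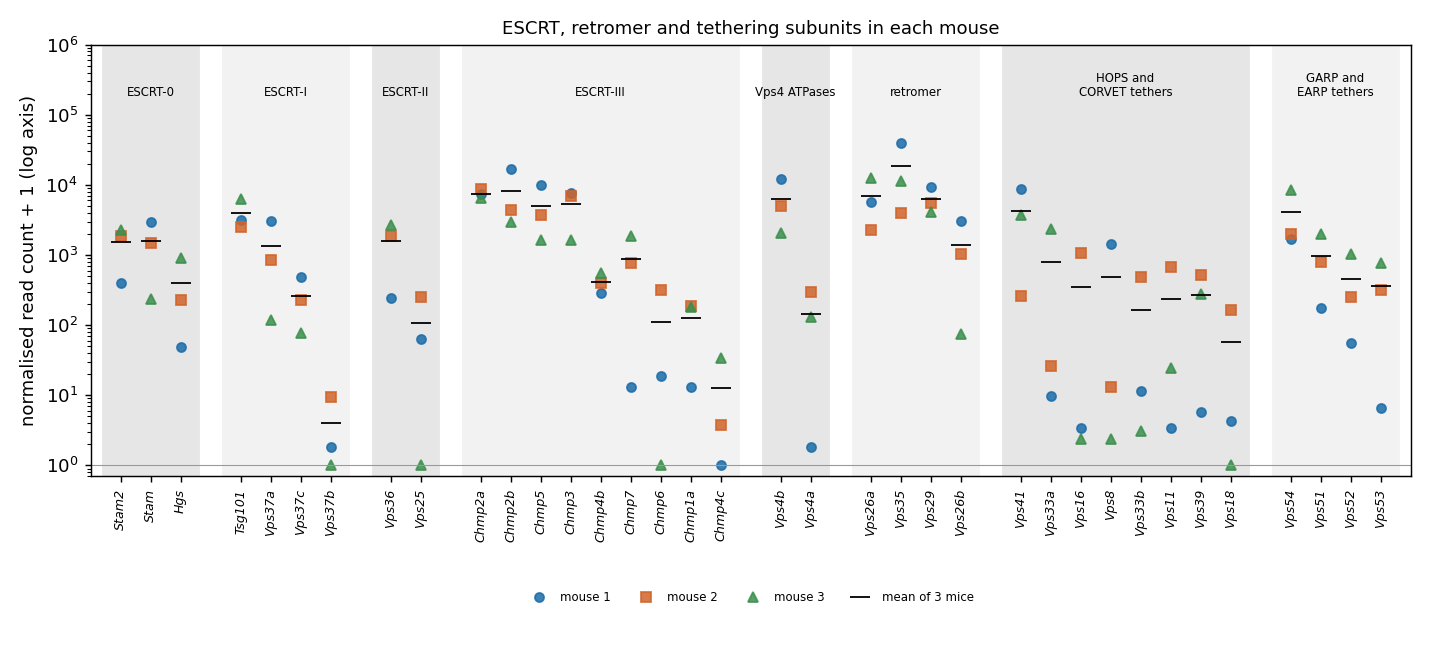
Normalised read count plus 1 (log axis) of each ESCRT, VPS4, retromer and tethering subunit in mouse 1 (circles), mouse 2 (squares) and mouse 3 (triangles), with the mean of 3 mice as a bar, grouped by complex and ordered by level per kb. Chmp2a (6464 to 8790) shows nearly overlapping points, whereas most HOPS and CORVET subunits spread over 2 or more powers of 10.

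Of the 4 genes of retromer, the coat that retrieves cargo from endosomes, 3 were called above the median gene, beside 23.5% of all genes. Vps35, its scaffold, was at 39875, 4033 and 11371 normalised reads in mice 1, 2 and 3. Vps29 was at 9269, 5483 and 4140, and Vps26a at 5615, 2270 and 12676. These 3 were above 1000 in every mouse, where 14.7% of all listed genes were at 1000 or more. Their log2 differences were 4.82 to 5.80. The alternative subunit Vps26b was at 3100, 1044 and 74.7 and was not called. Per kb, Vps26a exceeded Vps26b in 3 of 3 mice, with log2 ratios of 1.69, 1.95 and 8.22. The Vps35/Vps29 ratio per kb went both ways (1.57, -0.98 and 0.92).

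The BAR-domain nexins that work with retromer included the most abundant gene of the whole set. Snx5 was at 44392, 30814 and 44035 normalised reads in mice 1, 2 and 3, a spread of 1.44-fold, and per kb ranked first at 9516 ± 1853 (SD, n = 3). It lay 8.10 log2 units above the median gene (adjusted p = 1.50e-12 with and 0.0146 without the variance trend, limma). Snx2 was at 27237, 9610 and 6455, and Snx6 at 9715, 5789 and 4402. Both were called above the median gene too, by 7.01 and 5.93 log2 units. Snx5 and Snx6 encode interchangeable partners of Snx1 and Snx2. Per kb, Snx5 exceeded Snx6 in 3 of 3 mice (log2 ratio 2.16 ± 0.60, SD, n = 3).

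Snx1 was an exception in this group. It was at 165, 173 and 300 normalised reads, present in each mouse within 1.82-fold, and not called (log2 difference 0.47, adjusted p = 0.851, limma). Per kb, Snx2 exceeded Snx1 by log2 ratios of 8.05, 6.47 and 5.11, a mean of 6.54 ± 1.47 (SD, n = 3). Snx32, which is close to Snx5 and Snx6 in sequence, was at 1.61, 3.88 and 5.64 and was called below the median gene (log2 difference -4.79, adjusted p = 0.00948 with and 0.0224 without the variance trend, limma). The call did not hold without mouse 1 (adjusted p = 0.110, limma). It was also lost with 0.1 added in place of 1 (adjusted p = 0.144, limma) and with limma-voom weights on recovered reads (adjusted p = 0.0758).

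Among the other BAR-domain nexins, Snx4, known for recycling from endosomes and for autophagy, was at 9074, 977 and 3884 normalised reads in mice 1, 2 and 3. Snx18, which remodels membranes in endocytosis, was at 3462, 4428 and 1071. These 2 of the 7 were called above the median gene, beside 23.5% of all genes (log2 differences 4.57 and 3.83). Their adjusted p was 1.50e-04 and 0.00163 with and 0.0403 and 0.0398 without the variance trend (limma). The endocytic nexin Snx9 was at 618, 203 and 500 and lay below Snx18 per kb in 3 of 3 mice (log2 ratios -1.96, -3.91 and -0.57). Snx30 (3787, 236 and 493) was highest in mouse 1 and Snx7 (47.6, 852 and 26.8) in mouse 2. Snx33 was at 0, 6.66 and 0.705 and was called below the median gene.

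Nexins with a PX domain and no BAR domain were led by Snx3, a nexin that recruits retromer to early endosomes. Snx3 was at 3921, 10062 and 6062 normalised reads, and at a mean of 4729 per kb was called above the median gene (adjusted p = 2.26e-10 with and 0.0146 without the variance trend, limma), whereas its paralog Snx12 was at 6.45, 533 and 354. Snx10, required for acid secretion and bone resorption by osteoclasts, which share the myeloid lineage with macrophages, was at 9163, 2728 and 5295 and was called above the median gene (adjusted p = 0.00100 with and 0.0427 without the variance trend, limma). Snx11, the closest relative of Snx10, was at 0 in every mouse. Snx10 was at least 1638-fold higher than Snx11 in reads in every library, or at least 746-fold per kb, against the floor of 3 reads per library. Of the 11 genes in this group, 10 were tested, Snx11 being left out. Of the 10, 2 were called above the median gene, beside 23.5% of all genes. Below it 1 was called, Snx21 (0, 0.555 and 0.705), beside 17.3% of all genes.

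The remaining nexins varied between mice. Snx27, which recycles receptors with PDZ-binding tails, was at 1364, 691 and 399, and Snx17, which recycles integrins and LDL-receptor relatives, at 9.68, 1022 and 648. Their ratio per kb favoured Snx27 in mouse 1 and Snx17 in mice 2 and 3. Of the nexins with a domain like that of RGS proteins, Snx13 was at 4219, 2069 and 846, Snx14 at 134, 1549 and 2178, and Snx19 at 83.9, 7.77 and 2135. Snx25 was at 0, 29.4 and 2.11 and was called below the median gene (log2 difference -5.06, adjusted p = 0.00409 with and 0.0277 without the variance trend, limma). Without mouse 1 that call was lost (adjusted p = 0.221, limma), and the call of Snx13 above the median gene was lost without the trend (adjusted p = 0.0947, limma) and without any 1 of the 3 mice (adjusted p of 0.0847 to 0.366, limma).

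**Figure D3:**
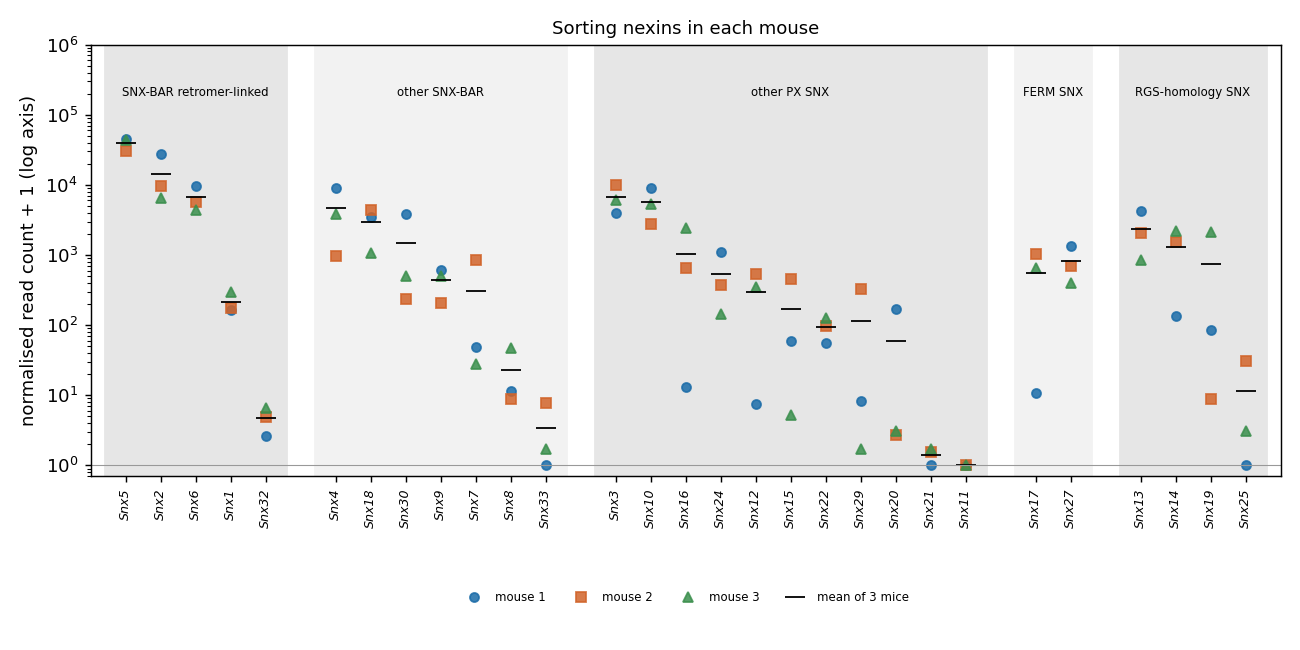
Normalised read count plus 1 (log axis) of each sorting nexin in mouse 1 (circles), mouse 2 (squares) and mouse 3 (triangles), with the mean of 3 mice as a bar, grouped by domain and ordered by level per kb within a group. Snx5 lies between 30814 and 44392 in all 3 mice, and Snx11 at 0.

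HOPS and CORVET share a core of 4 subunits, and each of these genes was under 10 normalised reads in mouse 1. Vps11 was at 2.42, 679 and 23.3 normalised reads in mice 1, 2 and 3, Vps16 at 2.42, 1049 and 1.41, and Vps18 at 3.23, 165 and 0. The fourth, the SM protein Vps33a, was at 8.87, 25.5 and 2317. Each of the first 3 was thus highest in mouse 2, and Vps33a in mouse 3. Vps33b, the paralog of Vps33a in another complex, was at 10.5, 484 and 2.11. Of the 8 tether genes, 3, 8 and 4 reached a level of 10 in mice 1, 2 and 3. Over all listed genes, 59.7%, 71.1% and 59.1% did so. The medians of these 8 genes were 6.85, 371 and 12.7. The part of the tubule RNA in mouse 2, whose marker sum is given above, was not tested.

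The subunits specific to one of the tethers also differed between mice. Vps41, specific to HOPS, was at 8709, 258 and 3769, the highest of the 8 genes per kb in mice 1 and 3 but not in mouse 2. Vps39, the other HOPS subunit, was at 4.84, 518 and 281, and the CORVET subunit Vps8 at 1440, 12.2 and 1.41. The per-kb ratio of Vps39 to Vps8 favoured Vps8 in mouse 1 and Vps39 in mice 2 and 3. Of the 8, Vps41 alone was called above the median gene, beside 23.5% of all genes (log2 difference 3.15, adjusted p = 0.0303, limma). That call was lost in the fit without a variance trend (adjusted p = 0.153, limma). It was lost too without mouse 1 (adjusted p = 0.446, limma) and without mouse 3 (adjusted p = 0.261, limma).

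In GARP, which receives vesicles from endosomes at the Golgi, all 4 genes were highest in mouse 3 and lowest in mouse 1. Of all genes with a mean of 10 or more, 32.1% were highest in mouse 3. Vps54, the subunit particular to GARP, was at 1698, 1973 and 8450 normalised reads. Vps51 was at 173, 783 and 1966, Vps52 at 54.8, 250 and 1040, and Vps53 at 5.65, 311 and 760. Per kb, Vps52 exceeded Vps53 in 3 of 3 mice, by log2 ratios of 3.46, 0.08 and 0.84. Vps54 was called above the median gene (log2 difference 3.57, adjusted p = 0.00518 with and 0.0602 without the variance trend, limma). The call did not hold without mouse 3 (adjusted p = 0.224, limma).

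The VPS13 proteins are long bridges that carry lipid between membranes. Vps13a was steady at 2056, 1476 and 2156 normalised reads, while Vps13b was at 1314, 279 and 2616 and Vps13d at 613, 244 and 294. Vps13c was at 19.4, 205 and 1.41 and, per kb, was called below the median gene (log2 difference -4.69, adjusted p = 0.0164 with and 0.0468 without the variance trend, limma). The call did not hold without mouse 1 (adjusted p = 0.0665, limma) or mouse 3 (adjusted p = 0.405, limma). It was also lost with 0.1 added in place of 1 (adjusted p = 0.167, limma) and with limma-voom weights on recovered reads (adjusted p = 0.163). Without division by exon length it was lost too (adjusted p = 0.482, limma). Of the other genes with this name, the SM protein Vps45 was at 0, 189 and 0.705, Vps9d1 at 0, 173 and 133, and Vps72, which is a chromatin protein in spite of its name, at 405, 2210 and 1.41. All 3 were highest in mouse 2, as were 34.0% of all genes with a mean of 10 or more. The call of Vps45 below the median gene was lost in the fit without the trend (adjusted p = 0.0823, limma) and without mouse 1 (adjusted p = 0.496, limma) or mouse 3 (adjusted p = 0.355, limma).

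The 3 steadiest genes of the set with a mean of 100 or more were SNAREs of the late endocytic pathway. Stx7, a syntaxin of late endosomes and lysosomes, was at 12427, 15374 and 14231 normalised reads in mice 1, 2 and 3 (log2 difference 6.51, adjusted p = 3.33e-09 with and 0.0146 without the variance trend, limma). Stx17, which sits on autophagosomes, was at 3771, 3643 and 3941, so that its highest and lowest values differed by 1.08-fold. Vamp8, the VAMP that pairs with either of these syntaxins, was at 17289, 13805 and 13565 (log2 difference 7.55, adjusted p = 1.83e-11 with and 0.0146 without the variance trend, limma). None of these 3 genes spread by more than 1.27-fold over the 3 mice. Stx12, of recycling endosomes, was at 3323, 2642 and 5709 and Stx8, which joins Stx7 in late endosome fusion, at 1029, 2141 and 3855.

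All 4 of these endosomal, lysosomal and autophagosomal syntaxins reached 1000 in every mouse and were called above the median gene. Over all listed genes, 14.7% reached 1000 in every mouse, and 23.5% of those tested were called above the median gene. Per kb, Stx7 exceeded Stx12 by 2.70-fold (log2 ratio 1.43 ± 0.61, SD, n = 3) and Stx8 by 10.9-fold (log2 ratio 3.45 ± 0.86, SD, n = 3), each in 3 of 3 mice. The call of Stx8 was lost in the fit without a variance trend (adjusted p = 0.0748, limma) and without mouse 2 (log2 difference 3.39, adjusted p = 0.0631, limma) or mouse 3 (log2 difference 2.44, adjusted p = 0.294, limma).

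Of the 4 Golgi and ER syntaxins, 1 was called above the median gene and 1 below it, beside 23.5% and 17.3% of all genes. Stx16, of the trans-Golgi network, was at 652, 2547 and 1408 normalised reads, and Stx6, its usual partner, at 2.42, 8.88 and 54.3. Per kb, Stx6 lay below Stx16 in 3 of 3 mice (log2 ratio -8.18 ± 1.82, SD, n = 3). These were Stx16 above and Stx6 below (adjusted p = 0.00808 with and 0.0333 without the variance trend, limma). The call of Stx16 was lost in the fit without the trend (adjusted p = 0.0555, limma) and without mouse 2 (adjusted p = 0.0670, limma) or mouse 3 (adjusted p = 0.122, limma). That of Stx6 was lost without mouse 1 (adjusted p = 0.221, limma) or mouse 2 (adjusted p = 0.0959, limma). The Stx6 call was also lost with 0.1 added in place of 1 (adjusted p = 0.152, limma) and with limma-voom weights on recovered reads (adjusted p = 0.138). Without division by exon length it was lost too (adjusted p = 0.25, limma). Stx5a, of the cis-Golgi, was at 28.2, 133 and 233, and Stx18, of the ER, at 4.03, 91.6 and 2439.

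No plasma membrane syntaxin was called in either direction, where 23.5% of all genes were called above the median gene and 17.3% below it. Stx4a, used for secretion in many cells, was at 28.2, 730 and 547 normalised reads and Stx3 at 83.9, 512 and 59.2. Stx11, needed for granule release by cytotoxic lymphocytes, was at 3.23, 306 and 0.705. Stx2 was at 1777, 3.88 and 0.705, while Stx19 was at 0, 204 and 0 and Stx1a, a neuronal form, at 0.806, 77.1 and 0.705. Of the 6, 5 were highest in mouse 2, beside 34.0% of all genes with a mean of 10 or more. Mouse 2 was also the library with the highest sum of tubule markers. The part of that RNA in these levels was not tested.

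Among the VAMPs, Vamp4, of the trans-Golgi network and endosomes, joined Vamp8 above the median gene. It was at 4415, 4434 and 6159 normalised reads (log2 difference 4.98, adjusted p = 9.43e-06 with and 0.0205 without the variance trend, limma). Vamp3, of recycling endosomes, was at 16.9, 968 and 370, and Vamp2, the form used in regulated secretion, at 13.7, 520 and 10.6. Vamp5 was at 4.03, 673 and 1174 and Vamp1 at 0 in every mouse. Per kb, Vamp8 exceeded Vamp3 in 3 of 3 mice, by log2 ratios of 10.23, 4.15 and 5.51.

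**Figure D4:**
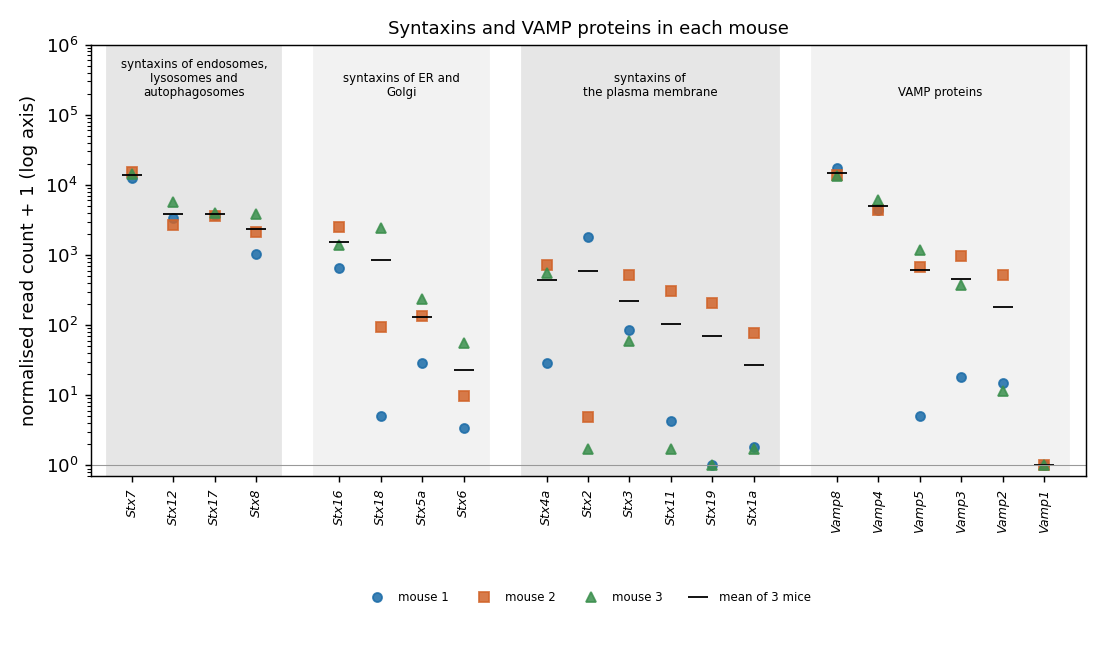
Normalised read count plus 1 (log axis) of each syntaxin and VAMP gene in mouse 1 (circles), mouse 2 (squares) and mouse 3 (triangles), with the mean of 3 mice as a bar, grouped by compartment and ordered by level per kb. Stx7 (12427 to 15374), Stx17 (3643 to 3941) and Vamp8 (13565 to 17289) show overlapping points, whereas Vamp3 (16.9 to 968) does not.

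The SNAREs that complete these bundles do not carry the family names and were listed separately, with other partners of the same machinery. For fusion of late endosomes, Vti1b joins Stx7, Stx8 and Vamp8, and it was at 3928, 607 and 2752 normalised reads in mice 1, 2 and 3. For fusion of autophagosomes, Snap29 joins Stx17 and Vamp8, and it was at 3.23, 319 and 1697, unlike the even levels of its partners. Snap23, which serves fusion at the plasma membrane, was at 12741, 4616 and 12930. Of the 48 partner genes found in the table, 33 reached a level of 10 in every mouse, beside 44.4% of all listed genes. Of the 47 tested, 16 were called above the median gene, beside 23.5% of all genes, and 5 below it, beside 17.3% (limma). In the fit without the trend 9 of the 16 and 3 of the 5 kept their calls, beside 16.3% and 14.2% of all genes called in both fits. The 4 highest per kb were Commd3, which acts in endosomal recycling (6319 normalised reads per kb), Snap23 (2352), Vta1, a cofactor of VPS4 (2087), and the ER SNARE Use1 (1981).

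Paralogs and alternative subunits were compared as log2 ratios of levels per kb within a library, in 29 pairs. In 18 pairs the ratio had the same sign in 3 of 3 mice, and in 11 of these the mean exceeded 2 SD. In the other 11 pairs the sign changed between mice, as for Stam over Stam2 (2.42, -0.83 and -3.72) and Chmp2a over Chmp2b (-0.48, 1.71 and 1.87). With 3 libraries, the smallest two-sided p of an exact sign-flip test is 0.25, so ratios carry no p. Where a gene rests on a few reads, the size of its ratio depends on the added 1.

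The spread between mice was wide over these families, as over all genes. Of 89 genes with a mean of 10 or more, 67 had a highest value at least 4 times the lowest (1 added to both), where 73.4% of all such genes did. Among the 37 with a mean of 1000 or more, the median of this ratio was 4.60, against 4.33 for all 4499 such genes. In 7 of the 37 the ratio was under 1.5, which held for 9.69% of the 4499. These 7 were Stx17, Stx7, Vamp8, Chmp2a, Vamp4, Snx5 and Vps13a, named after their values were seen. The limit of 1.5 was not part of the plan. It falls between Vps13a (1.46) and the next of the 37, Stx12 (2.16). Only 0.489% of the 4499 genes had a smaller ratio than Stx17. At the other end, Stx2, Vps72, Vps8, Stx18 and Vps16 had 1 to 5 reads in their lowest library and a level above 1000 in their highest. The highest value fell in mouse 1, 2 or 3 for 27, 31 and 31 of the 89 genes, near the 34.0%, 34.0% and 32.1% found over all genes.

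**Figure D5:**
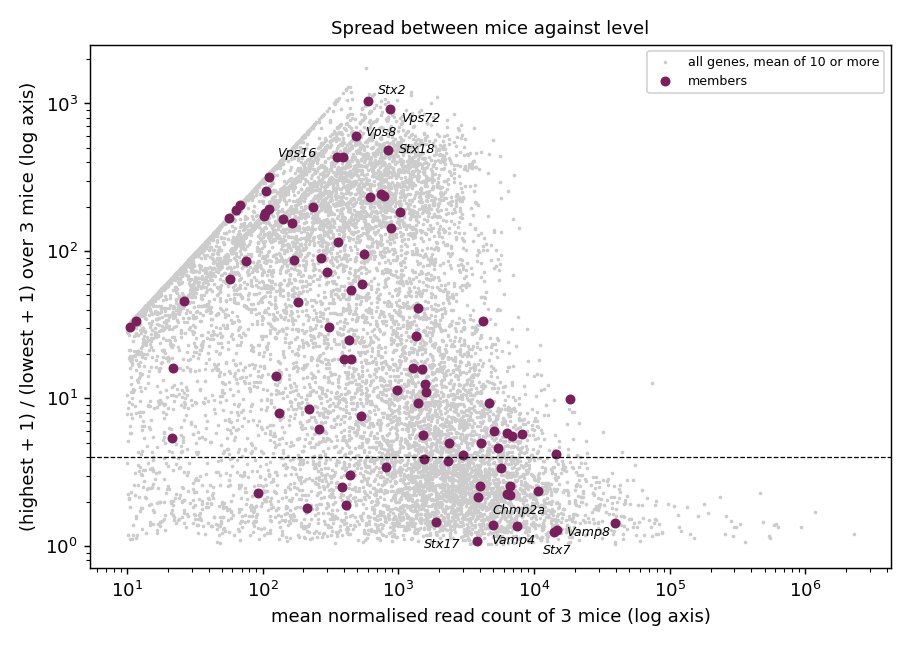
Ratio of the highest to the lowest normalised read count over 3 mice (1 added to both, log axis) against the mean of 3 mice (log axis) for all genes with a mean of 10 or more (grey) and the 89 genes of these families (purple); the dashed line marks a ratio of 4. The 5 genes with the smallest and the 5 with the largest ratio among those with a mean of 100 or more are named; Stx17 lies at 1.08.

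Promoters were searched for a sequence shared by many lysosomal genes, the CLEAR element bound by TFEB and its relatives, since HOPS and retromer genes belong to the same organelle system. RefSeq windows (GRCm38.p6) from 250 bases before to 50 bases after a start site were found for 71 of the 95 genes. The full palindrome, CACGTG with GT before it and AC after it, which reads the same on both strands, was in a window of 3 of these 71 genes (4.23%), against 0.808% of 9652 listed genes with a window. Its core CACGTG was in 9 of the 71 (12.7%), against 11.8% of the 9652. The 3 genes were the HOPS and CORVET core subunits Vps16 and Vps33a and the retromer subunit Vps26a. Their windows are shown with that of Snx5, the most abundant gene, which holds the core. Capitals mark the full palindrome in the first 3 and CACGTG in Snx5.
Vps16 (chr2:130424070-130424369, plus strand): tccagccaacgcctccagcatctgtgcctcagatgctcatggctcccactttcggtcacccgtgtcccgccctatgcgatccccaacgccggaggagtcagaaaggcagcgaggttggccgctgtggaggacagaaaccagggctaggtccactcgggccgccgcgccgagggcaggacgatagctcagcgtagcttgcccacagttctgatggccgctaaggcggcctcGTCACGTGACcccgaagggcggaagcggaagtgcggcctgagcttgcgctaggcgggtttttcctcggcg
Vps33a (chr5:123572966-123573265, minus strand): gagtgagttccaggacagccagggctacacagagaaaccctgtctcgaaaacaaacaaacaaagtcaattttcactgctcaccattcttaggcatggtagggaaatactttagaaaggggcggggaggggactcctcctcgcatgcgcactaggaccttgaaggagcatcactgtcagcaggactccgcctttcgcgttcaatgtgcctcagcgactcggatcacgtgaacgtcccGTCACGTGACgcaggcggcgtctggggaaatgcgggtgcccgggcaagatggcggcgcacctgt
Vps26a (chr10:62486756-62487055, minus strand): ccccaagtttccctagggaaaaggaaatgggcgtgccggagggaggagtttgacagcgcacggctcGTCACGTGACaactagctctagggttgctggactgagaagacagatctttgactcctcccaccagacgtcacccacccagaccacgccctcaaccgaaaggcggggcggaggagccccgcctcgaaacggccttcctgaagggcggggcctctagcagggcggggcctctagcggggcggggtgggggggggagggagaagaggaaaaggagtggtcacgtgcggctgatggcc
Snx5 (chr2:144270523-144270822, minus strand): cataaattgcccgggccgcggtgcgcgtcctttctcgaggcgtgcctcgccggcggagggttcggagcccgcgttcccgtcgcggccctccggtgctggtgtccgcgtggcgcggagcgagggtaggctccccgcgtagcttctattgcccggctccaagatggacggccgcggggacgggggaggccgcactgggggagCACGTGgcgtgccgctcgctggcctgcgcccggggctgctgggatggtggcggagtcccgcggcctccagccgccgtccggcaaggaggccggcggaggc
The capitals begin 20, 14, 184 and 50 bases before the start in Vps16, Vps33a, Vps26a and Snx5. Levels of the 3 genes with the full element did not follow one pattern. Vps16 was highest in mouse 2 (1049 normalised reads) and Vps33a (2317) and Vps26a (12676) in mouse 3. A match is a description of these letters and not evidence of binding.

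Some of these values may be uncertain where genes overlap or have a pseudogene. The SMART-seq kit is not stated to keep strand. Of the 95 genes, 31 have exon bases that overlap another gene in GENCODE M21 on either strand. In 23 the overlap is with a gene on the other strand, among them Snx5 with Mgme1, Vps35 with Orc6, Snx22 with Ppib and Snx32 with Cfl1. Stambp and Tsg101, both called above the median gene, have a pseudogene of the same name in that annotation. Snx16 and Chmp4c overlap each other, and both were highest in mouse 3. The effect of overlaps and pseudogenes on the counts was not tested.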

How the data were processed

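The deposited table gives a normalised signal per gene for 3 mice: the authors made it with HTSeq 0.5.4, a read counter, and DESeq 1.18.0, which supplies size factors, on build mm9 (per the submitters' processing notes). Per the labels' protocols, kidneys were digested for 30 min and cDNA was amplified with SMART-seq v4, with 10 ng used for libraries and 8 cycles of PCR. Aligner and annotation: not given in the sources used here. Every deposited value is 1 or more. Less 1, 100% of the values in a library are multiples of the worth of 1 read (within 0.05 of it). The 1 was removed and reads recovered by dividing by that worth. Reads are not molecules, so floors cover counting error only.

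Exon lengths (union over transcripts) came from GENCODE M21, another build, by gene identifier, for 99.6% of genes. The level test used limma 3.58.1 in R 4.3.3 on log2(value + 1) minus log2 exon kb minus the library median, intercept only, with Benjamini-Hochberg adjustment over all genes with a mean above 0. Its variance trend uses level itself, so counts of calls and the adjusted p of most genes described singly are also given without it. On simulated data the fit with the trend called more genes placed at the median than the fit without it. The labels name the samples as separate mice. Other steps used Python 3.11.15, numpy 2.4.6, pandas 2.3.3 and matplotlib 3.10.9.

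Values per mouse are given for nearly all genes of the set. The rule was the 2 highest per kb of each role, both genes of each pair described, those at 0 in a mouse and at 1000 or more in another (none met this), and the 5 steadiest and 5 most variable with a mean of 100 or more. Members, role lists, pairs and partner genes were chosen with earlier results of these data known, as was the promoter motif. Of 31 listed pairs, 2 had a gene not analysed here.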

Additional observations from a re-analysis of the deposited data

How the results depend on the processing

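The number of genes called above the median gene was 28 and lay between 22 and 32 in the other settings, within 1.5 times the main count, while the share of all genes called above it moved between 16.2% and 25.6% (23.5% in the main setting). The number called below it was 9 (17.3% of all genes). It was 5 with a pseudocount of 0.1 (12.9% of all genes), 5 with limma-voom weights on recovered reads (13.1%) and 3 when genes under a mean of 10 were left out (4.32%). That filter removes 4 of the 9, while Vps45 and Vps13c stay in and lose their calls. Leaving out each mouse in turn gave 22 to 26 genes above, 6 to 14 below (14 without mouse 2), 60 to 67 genes at 10 or more and 27 to 28 at 1000 or more in every remaining mouse. It gave 36 to 49 genes with a ratio of 4 or more (36 without mouse 1), where fewer mice alone lower the ratio. Over the refits of the 37 called genes, 383 kept the call, 57 lost it and none changed sign. Their log2 differences shifted by -1.71 against the median of genes above 0 in every library, by -1.24 with the filter at a mean of 10 and by 0.60 with all listed genes. Each of these shifts was the same for every called gene in the fit, because the median was taken over another set of genes. The lost calls were those of Vps45, Snx13, Vps41, Vps13c, Stx6, Stx16, Stx8, Vps36, Snx32, Vps54, Vps4b, Snx25 and Vps37b. Of the recomputed pair ratios, 199 moved by less than their SD and 4 by more, for Chmp4b/Chmp4c and Snx10/Snx11, and no ratio with the same sign in all 3 mice reversed. Of the pairs with mixed signs, 9 changed the sign of their mean when 1 mouse was left out. The cause of these changes in pair ratios was not tested. No paired analysis was possible because the study has a single group. With 1 read worth 0.555 to 0.806 normalised reads, differences among genes at a few reads were not detectable.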
